A study of Mus musculus with 18 samples.

Results

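Genes of blood coagulation and of fibrinolysis were examined in alveolar macrophages, which live on the air side of the lung. Of the 32789 genes in the count table, 7 were followed: F3, F7, F10, Thbd, F13a1, Plau and Plaur. They were picked by name, for their place in the pathway and with earlier results of these data known. Each was matched by its symbol to 1 row of the table. The filter on low counts passed 12900 genes, and all 7 were among them, F3 only barely.

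The study sequenced polyA RNA from cells washed out of mouse lungs and selected magnetically by their surface CD11c. It held 18 libraries in 6 groups of 3. The knockouts carried CD11c-Cre, a recombinase active in cells that express CD11c. The Vhl/Hif1a knockout was labelled as lacking Vhl and Hif1a, the Vhl/Hif2a knockout as lacking Vhl and Hif2a (gene symbol Epas1), and the triple knockout as lacking all 3 genes. Each knockout had a control of its own cross, labelled as flox/flox for the same genes, and whether the controls carried Cre is not stated in the labels. All knockouts therefore share the loss of Vhl, and differ in which hypoxia-inducible factor is left. CD11c-Cre is not restricted to alveolar macrophages, since dendritic cells also express CD11c. Strain, age, sex, pooling of animals and oxygen exposure are not given in the labels, which also do not say that the 3 libraries of a group came from separate animals. The p-values below measure the spread between these libraries, which may be technical.

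Tissue factor, encoded by F3, is the membrane protein that binds factor VII and starts the extrinsic pathway of coagulation, and the complex cleaves factor X, which goes on to make thrombin. Thrombomodulin on the cell surface turns thrombin towards activation of protein C, which shuts the cascade down, and factor XIII cross-links the fibrin of the clot. Urokinase, bound to its receptor, converts plasminogen to plasmin, which dissolves fibrin. Factors VII and X are best known as liver products, but lung macrophages also express their genes. When oxygen is present, VHL protein marks HIF-1α and HIF-2α for destruction, so its loss leaves both factors stable.

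F7 and F10 lie head to tail on the forward strand of chromosome 8 in GRCm38, F7 at chr8:13026034-13035809 and F10 at chr8:13037308-13056676, with 1498 bases between them. The pair is shown since F10 rose in 2 knockouts while its neighbour F7 was not called in any. The 250 bases before each start site are given here for F10 and F7, and for F13a1, the member with the largest fold change. They come from RefSeq on GRCm38.p6 and are written 5′ to 3′ on the strand of the gene. The intervals are chr8:13037058-13037307 for F10, chr8:13025784-13026033 for F7, and, on the reverse strand, chr13:37050245-37050494 and chr13:37049214-37049463 for 2 annotated starts of F13a1. Capitals mark the only match to ACGTG in these 4 sequences, which lies on the reverse strand and so reads CACGT.
F10: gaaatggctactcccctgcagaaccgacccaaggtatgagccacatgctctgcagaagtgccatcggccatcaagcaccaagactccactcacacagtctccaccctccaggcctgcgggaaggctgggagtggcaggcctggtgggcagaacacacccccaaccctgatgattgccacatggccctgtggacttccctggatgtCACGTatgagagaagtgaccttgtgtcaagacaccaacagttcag
F7: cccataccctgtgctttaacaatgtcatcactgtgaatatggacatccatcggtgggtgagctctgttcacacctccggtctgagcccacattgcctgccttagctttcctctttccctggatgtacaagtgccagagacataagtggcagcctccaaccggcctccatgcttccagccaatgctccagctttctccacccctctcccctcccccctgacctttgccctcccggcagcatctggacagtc
F13a1, first start: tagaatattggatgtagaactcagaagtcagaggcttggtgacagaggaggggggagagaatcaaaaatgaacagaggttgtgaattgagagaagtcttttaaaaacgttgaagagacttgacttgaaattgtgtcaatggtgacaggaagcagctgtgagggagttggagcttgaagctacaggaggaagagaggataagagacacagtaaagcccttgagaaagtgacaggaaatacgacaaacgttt
F13a1, second start: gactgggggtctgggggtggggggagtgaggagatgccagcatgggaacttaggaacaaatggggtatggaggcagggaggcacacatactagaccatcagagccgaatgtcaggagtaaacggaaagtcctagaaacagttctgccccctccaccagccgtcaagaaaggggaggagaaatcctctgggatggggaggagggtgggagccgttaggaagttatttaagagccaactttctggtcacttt

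Both strands of windows that ran from 250 bases before to 50 bases after the start were searched for ACGTG and GCGTG, the core letters of the hypoxia response element, and for TGANTCA, the letters bound by Fos and Jun proteins. F10 held 1 ACGTG, 45 bases before its start, and F7 and both F13a1 windows held none of the 3 motifs. F3 held 2 matches to TGANTCA and Plaur 1. Among 32851 promoter windows of the same length, 19.6% held ACGTG, 43.8% held ACGTG or GCGTG, and 7.81% held TGANTCA. A match to ACGTG is therefore common. These matches describe letters in short windows and do not locate a bound site. Thbd and Plau had no entry in the promoter table.

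Library totals ran from 19230452 to 34015320 counts. Vhl, the targeted gene shared by all crosses, lay at 1.92 to 3.09 CPM (counts scaled to the size of the library) in the 9 knockout libraries and at 12.2 to 20.1 CPM in the 9 controls. The gene totals of Hif1a and Epas1 did not all follow the labels. Hif1a lay at 166 to 209 CPM in the Vhl/Hif1a knockout against 225 to 232 CPM in its control, and at 58.7 to 78.6 CPM in the Vhl/Hif2a knockout against 179 to 242 CPM. Epas1 lay at 48 to 58.6 CPM in the Vhl/Hif2a knockout against 23.2 to 35.1 CPM in its control. In the Vhl/Hif1a knockout Epas1 lay at 36.8 to 60.4 CPM against 33.2 to 35.9 CPM in its control. In the triple knockout both overlapped their controls. A total over all exons cannot show the loss of part of a gene, so the names Hif1a and Hif2a knockout below are those of the labels. Vegfa lay at 60.5 to 86.5 CPM in the Vhl/Hif2a knockout, and at 0 to 0.274 CPM in the Vhl/Hif1a knockout. In the triple knockout it lay at 0.137 to 0.227 CPM. Markers of alveolar macrophages were abundant, with all 12 of a list of 12 tested and a summed level of 25000 to 41000 CPM. The summed level of 6 hepatocyte genes, the liver cells that make factors VII and X, stayed at or below 0.139 CPM in all libraries. Replicate 2 of the triple control stood apart from the other libraries of its group, and replicate 3 of the Vhl/Hif1a control held more Egln3, a hypoxia-induced gene, than its fellows (32.5 against 0.464 and 0.617 CPM, with 391 to 548 CPM in the knockout). Likewise replicate 1 of the Vhl/Hif2a control held 11.5 CPM of Egln3 against 2.47 and 0.465 CPM, with 289 to 335 CPM in the knockout. The triple knockout held 0.162 to 0.428 CPM of Egln3.

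The members spanned a wide range of levels. Per kilobase of exon, F7 was the most abundant, at a mean of 246 CPM per kb over the 18 libraries, followed by Plaur at 117, F10 at 89.2, Thbd at 16.6, Plau at 11.4, F13a1 at 0.269 and F3 at 0.0905 CPM per kb. F7 ranked 309th and F3 12775th of the 12900 tested genes by mean CPM without length scaling. In bulk libraries, fewer cells of a type and less RNA per cell cannot be told apart, and the levels below carry that limit.

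**Figure D1:**
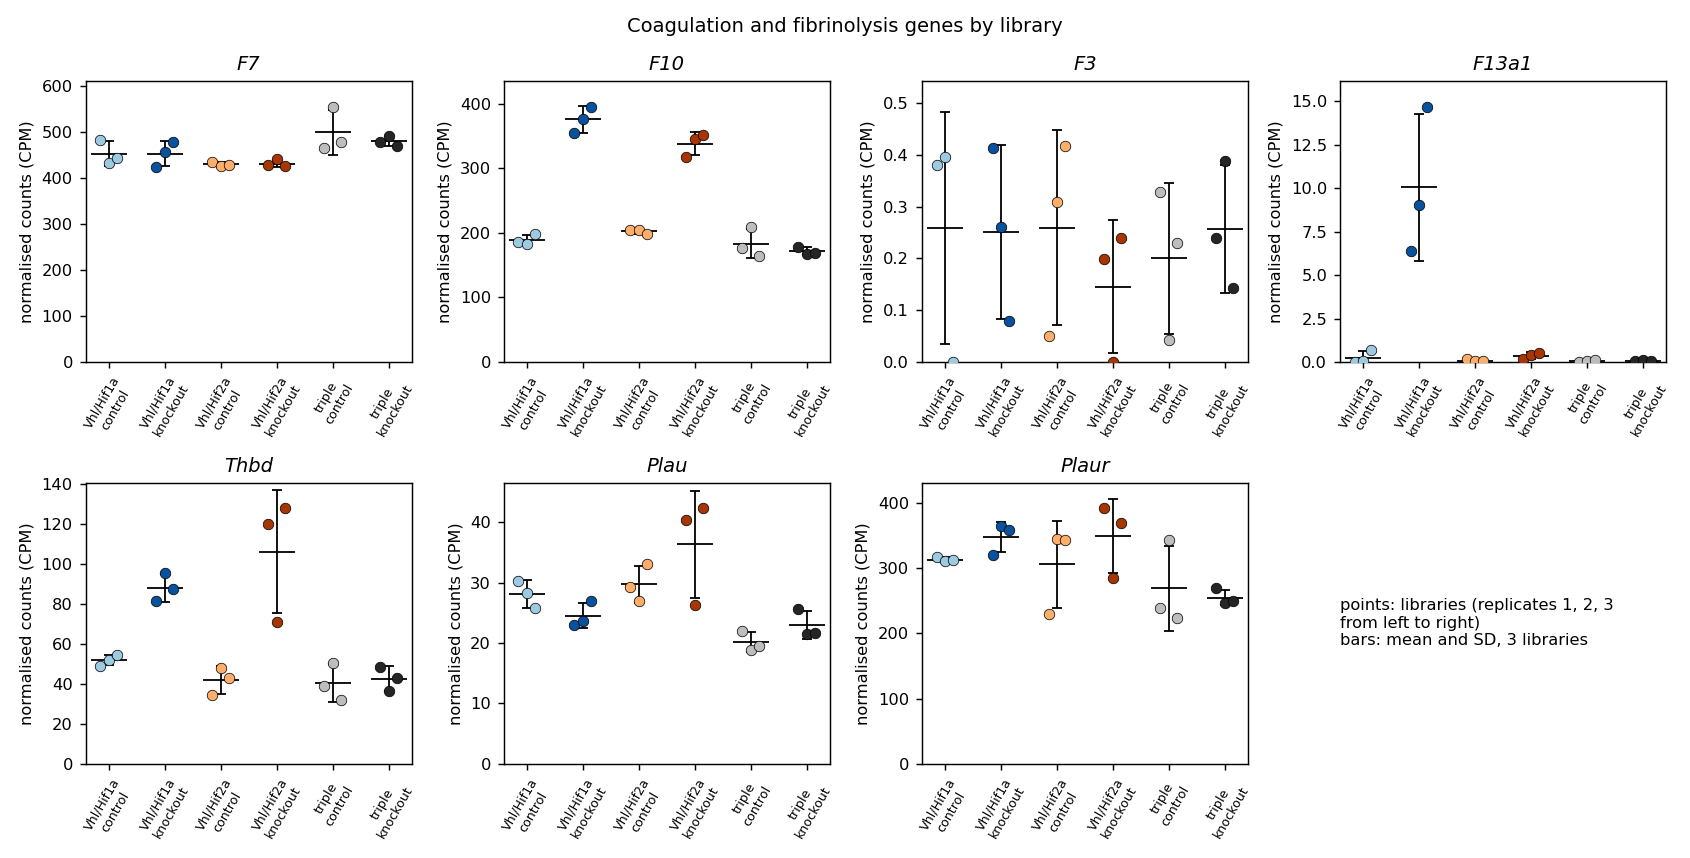
Normalised counts (CPM, linear axes from 0) of the 7 genes in each of the 18 libraries; points are libraries and bars the mean and SD of 3. F10 lay between 318 and 396 CPM in the 2 knockouts that keep 1 hypoxia-inducible factor and between 165 and 209 CPM elsewhere, while F7 stayed between 424 and 555 CPM in all libraries.

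Against its own control, the Vhl/Hif1a knockout had 3 of the 7 members higher and none lower (F10, Thbd and F13a1), where 3.64% of all tested genes were called, 2.22% as higher and 1.42% as lower. The Vhl/Hif2a knockout had 2 members higher and none lower (F10 and Thbd), where 14.7% of tested genes were called, 7.68% as higher and 7.01% as lower. The triple knockout had no member called, where 0.0388% of tested genes, 5 in number, were called. With DESeq2 the triple knockout likewise had no member called, and 1484 genes had an unadjusted p under 0.05 in edgeR. The median log2 fold change of the members was 0.15, 0.29 and 0.08 in the 3 comparisons, against 0, 0 and -0.01 for all tested genes. Since the members were chosen with earlier results of these data known, these shares and medians do not test the set. Calls were made at an adjusted p under 0.05 from the quasi-likelihood test of edgeR, with the Benjamini-Hochberg adjustment over all tested genes, and values after ± are SD for CPM and standard errors (SE) for log2 fold changes.

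**Figure D2:**
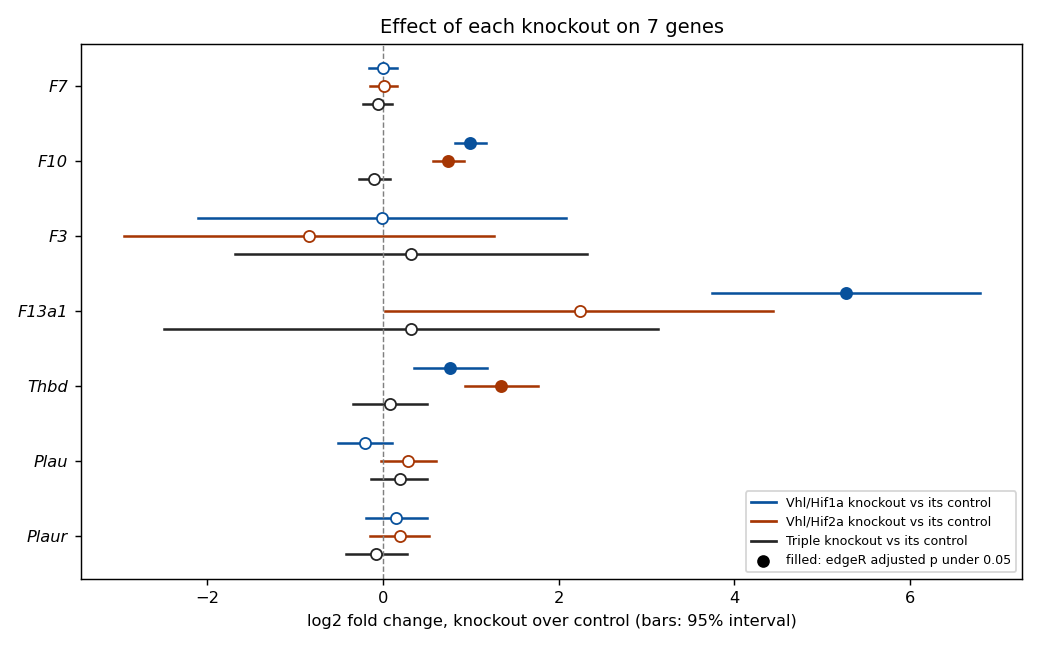
Log2 fold change of each gene, knockout over its own control, with 95% intervals as bars; filled points passed an edgeR adjusted p of 0.05. F10 and Thbd passed in the Vhl/Hif1a and Vhl/Hif2a knockouts, F13a1 in the Vhl/Hif1a knockout, and no gene passed in the triple knockout.

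F10 encodes factor X, the protease on which the extrinsic and intrinsic pathways converge. In the Vhl/Hif1a knockout its levels were 355, 377 and 396 CPM in replicates 1 to 3, and in the control 186, 183 and 198 CPM. In the Vhl/Hif2a knockout they were 318, 345 and 352 CPM, and in the control 204, 205 and 198 CPM. In the triple knockout they were 179, 168 and 169 CPM, and in the control 177, 209 and 165 CPM. Every library of the first 2 knockouts lay above every control library of all crosses, while the triple knockout overlapped its control. The rise was 1.99-fold in the Vhl/Hif1a knockout (376 ± 20.3 against 189 ± 7.75 CPM, n = 3 each), a log2 fold change of 0.99 ± 0.08 with an edgeR adjusted p of 8.2e-07. It was 1.67-fold in the Vhl/Hif2a knockout (338 ± 17.7 against 203 ± 3.82 CPM), a log2 fold change of 0.74 ± 0.08 with an edgeR adjusted p of 7.1e-06. In the triple knockout the log2 fold change was -0.10 ± 0.08, with a 95% interval from -0.27 to 0.08 and an edgeR adjusted p of 0.54. Without replicate 2 of the triple control it was 0.01. The intervals of the first 2 effects lay entirely above that of the triple knockout.

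The test of the difference between effects gave the same separation for F10. Its effect in the Vhl/Hif1a knockout exceeded that in the triple knockout by 1.09 ± 0.12 on the log2 scale (edgeR adjusted p = 3.3e-05), in a contrast that called 2.04% of tested genes. Its effect in the Vhl/Hif2a knockout exceeded the triple effect by 0.84 ± 0.12 (edgeR adjusted p = 1.8e-04), in a contrast that called 7.99% of them. Both differences share the triple knockout and its control, so they are not independent. Between the Vhl/Hif1a and Vhl/Hif2a knockouts the effects on F10 differed by 0.25 ± 0.12, with a 95% interval from 0.01 to 0.50 and an edgeR adjusted p of 0.46, and the difference was not called.

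F7 encodes factor VII, the protease that joins tissue factor. Its levels were 424, 457 and 478 CPM in the Vhl/Hif1a knockout and 483, 432 and 444 CPM in the control. They were 427, 440 and 426 CPM in the Vhl/Hif2a knockout and 435, 425 and 429 CPM in the control. They were 477, 491 and 470 CPM in the triple knockout and 466, 555 and 477 CPM in the control. Each knockout overlapped its control. The log2 fold changes were 0 ± 0.08 (95% interval -0.16 to 0.16), 0.01 ± 0.08 (-0.15 to 0.16) and -0.06 ± 0.08 (-0.22 to 0.10), so that a rise of the size seen for F10 lay outside each interval.

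The ratio of the 2 neighbours does not depend on how libraries are scaled. Per kilobase, F10 stood at 57.1%, 56.2% and 56.4% of F7 in the Vhl/Hif1a knockout and at 26.2%, 28.9% and 30.3% in its control. It stood at 50.8%, 53.3% and 56.2% in the Vhl/Hif2a knockout and at 32.0%, 32.8% and 31.5% in its control. In the triple cross it was 25.6%, 23.2% and 24.5% in the knockout and 25.9%, 25.7% and 23.6% in the control. The first 2 knockouts did not overlap their controls, at a two-sided exact permutation p of 0.1 each, the smallest that 3 libraries against 3 can give, and for the triple knockout the exact p was 0.5. Of the genes further out on either side, Mcf2l, Proz, Pcid2 and Cul4a were not called in any of the 3 knockouts. Atp11a, which lies beyond Mcf2l, fell in the Vhl/Hif2a knockout (49.4 ± 3.31 against 73.1 ± 5.11 CPM, log2 fold change -0.56 ± 0.09, edgeR adjusted p = 3.3e-04), in the direction opposite to F10.

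**Figure D3:**
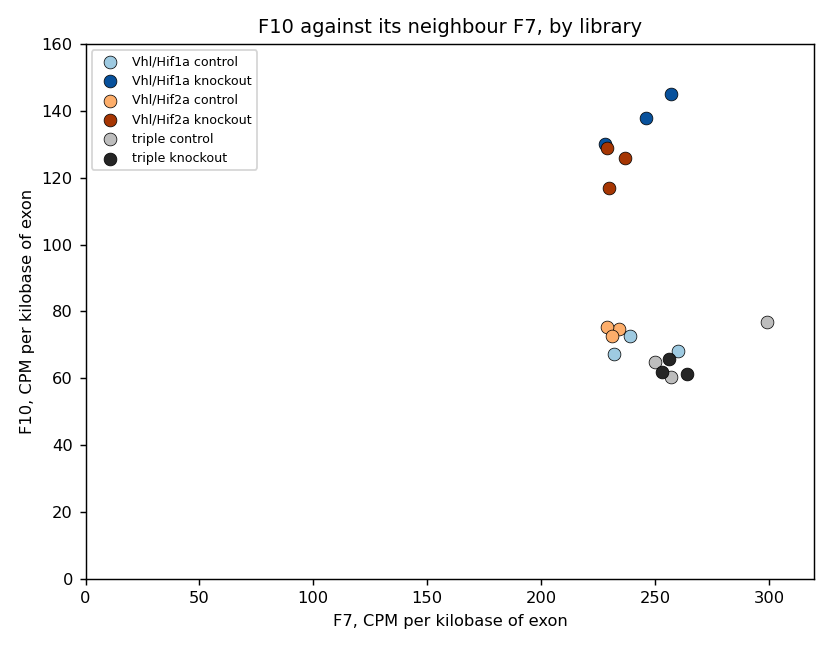
F10 against F7 in CPM per kilobase of exon, 1 point per library, both axes linear from 0. The 6 libraries of the Vhl/Hif1a and Vhl/Hif2a knockouts sit above the other 12, which lie at or below 76.7 CPM per kb of F10, while F7 spans 228 to 257 CPM per kb in those 6 and 229 to 299 in the rest.

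Thbd encodes thrombomodulin, the thrombin receptor that supports protein C activation. Its levels were 81.5, 95.4 and 87.4 CPM in the Vhl/Hif1a knockout and 49.2, 52.0 and 54.6 CPM in the control. They were 120, 71.0 and 128 CPM in the Vhl/Hif2a knockout and 34.2, 48.1 and 42.8 CPM in the control. They were 48.7, 36.4 and 42.8 CPM in the triple knockout and 38.9, 50.7 and 31.7 CPM in the control. The first 2 knockouts lay above their controls without overlap, the Vhl/Hif2a knockout with 1 low library, and the triple knockout overlapped its control.

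In the Vhl/Hif2a knockout Thbd rose 2.55-fold (106 ± 30.8 against 41.7 ± 7.03 CPM), a log2 fold change of 1.35 ± 0.20 with an edgeR adjusted p of 1.4e-04. In the Vhl/Hif1a knockout it rose 1.70-fold (88.1 ± 6.97 against 51.9 ± 2.72 CPM), a log2 fold change of 0.76 ± 0.20 with an edgeR adjusted p of 0.038. That second call was lost when any 1 of the 6 libraries was left out, with log2 fold changes of 0.70 to 0.82 and edgeR adjusted p from 0.061 to 0.15. In the triple knockout the log2 fold change was 0.08 ± 0.20 (95% interval -0.34 to 0.50), and 0.28 without replicate 2 of its control. The effect in the Vhl/Hif2a knockout exceeded the triple effect by 1.27 ± 0.28 (edgeR adjusted p = 0.0088). The excess of the Vhl/Hif1a effect over the triple effect, 0.69 ± 0.28, was not called (edgeR adjusted p = 0.25), nor was the difference between the Vhl/Hif1a and Vhl/Hif2a effects (-0.58 ± 0.28, edgeR adjusted p = 0.48).

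In every group except the Vhl/Hif1a control, the library with the least Thbd also had the lowest summed level of 12 immediate early genes. These genes (Fos, Jun, Egr1 and others) are quickly induced when cells are handled. In the Vhl/Hif1a control, the library with the lowest sum, replicate 3 at 763 CPM, had the most Thbd, 54.6 CPM. The summed level was 3160, 1380 and 2680 CPM in the Vhl/Hif2a knockout and 558, 1950 and 1340 CPM in its control. Replicate 2 of the knockout had more Thbd than replicate 2 of the control (71.0 against 48.1 CPM) at a lower sum. This list was added after the levels of Thbd and Plaur had been seen. With the sum as a covariate, Thbd remained called in the Vhl/Hif2a knockout, at 1.04 ± 0.18 (edgeR adjusted p = 0.0013), and in the Vhl/Hif1a knockout, at 0.76 ± 0.16 (edgeR adjusted p = 0.0089). Its excess over the triple effect in the Vhl/Hif2a cross went to 0.86 and was no longer called (edgeR adjusted p = 0.065). Over the tested genes of the list, the median log2 fold change was -0.05 in the Vhl/Hif1a knockout and 0.96 in the Vhl/Hif2a knockout. In each of these knockouts 1 of the 11 tested genes was called higher, where 2.22% and 7.68% of all tested genes were. The median of the list was thus above 0 in the Vhl/Hif2a knockout, although 1 gene was called and the sums overlapped those of the control. The fit cannot separate handling from genotype. The part of handling in the Thbd result was not tested.

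**Figure D4:**
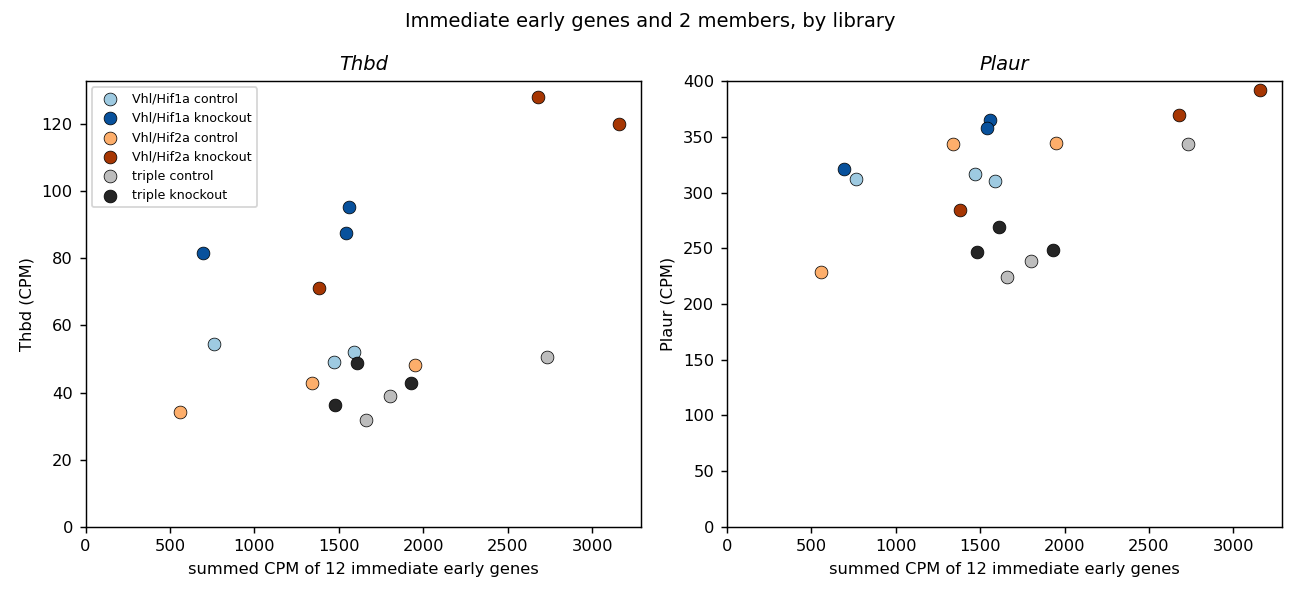
Thbd and Plaur (CPM) against the summed CPM of 12 immediate early genes, 1 point per library, linear axes from 0. Replicates 1 and 3 of the Vhl/Hif2a knockout have the highest Thbd, 120 and 128 CPM, and immediate early sums of 3160 and 2680 CPM, while the Vhl/Hif1a knockout lies above its control in Thbd at like sums.

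Some markers of other cells also differed between these groups. The summed level of 8 monocyte markers, 5 of them tested, was 73.3 to 85.2 CPM in the Vhl/Hif1a knockout against 56.5 to 64.7 CPM in its control. It was 90.8 to 104 CPM in the Vhl/Hif2a knockout against 55.4 to 61.1 CPM in its control, and 65.0 to 68.3 against 65.4 to 88.8 CPM in the triple cross. Ace, at 40.2 to 81.9 CPM, made up most of that sum, while the median log2 fold change of the tested markers was -0.11, -0.44 and -0.15 in the 3 knockouts. In the Vhl/Hif2a knockout, where 14.7% of all tested genes were called, Ace and Ccr2 were higher and Hp was lower. No monocyte marker was called in the Vhl/Hif1a and triple knockouts, where 3.64% and 0.0388% of all tested genes were. The defining monocyte genes Ly6c2 and Plac8 had at most 3 counts in any library.

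The summed level of 8 neutrophil markers, 6 of them tested, was 74.0 to 82.4 CPM in the Vhl/Hif1a knockout against 149 to 165 CPM in its control, 126 to 151 against 122 to 193 CPM in the Vhl/Hif2a cross, and 145 to 162 against 127 to 136 CPM in the triple cross. Csf3r and Cxcr2 fell in the same 2 knockouts in which F10 rose. Csf3r averaged 27.2 ± 2.77 CPM in the Vhl/Hif1a knockout and 70.5 ± 6.47 CPM in its control (SD, n = 3), 34.6 ± 4.18 against 72.7 ± 9.12 CPM in the Vhl/Hif2a cross and 76.8 ± 3.43 against 73.2 ± 5.71 CPM in the triple cross, where it was not called. S100a8 rose in both of these knockouts, to 6.90 ± 0.916 and 10.4 ± 1.42 CPM, and Mmp8 fell in the Vhl/Hif1a knockout. The defining neutrophil gene Ly6g had 0 counts in all libraries. The alveolar macrophage sum was higher in all 3 knockouts, at 34200 to 41000, 35700 to 37600 and 35700 to 37100 CPM, than in their controls, at 29300 to 30600, 27500 to 30000 and 25000 to 33100 CPM. Chil3 made up most of that sum, at 28400 ± 3320 against 20800 ± 462 CPM in the Vhl/Hif1a cross and 25000 ± 1420 against 18600 ± 2260 CPM in the Vhl/Hif2a cross, and was called only in the second of these, whereas Siglecf fell in both. Fabp4 lay at 88.3 ± 6.7 against 41.3 ± 8.17 CPM and at 355 ± 3.87 against 132 ± 36.3 CPM in these 2 crosses. Krt79 was lower in both, and Itgax lay at 2150 ± 58 against 1360 ± 9.8 CPM in the triple cross. Of the 12 genes, 1 was called higher and 1 lower in the Vhl/Hif1a knockout, so Siglecf and Krt79 were not both called there. In the Vhl/Hif2a knockout 4 were called higher and 2 lower. In the triple knockout 1 was higher and 0 lower. The shares of all tested genes called were 3.64%, 14.7% and 0.0388%. The median log2 fold change of the 12 genes was 0.07, 0.20 and 0.16 in the 3 knockouts. The part of these markers in the F10 and Thbd results was not tested.

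F13a1 encodes the catalytic A subunit of factor XIII, the transglutaminase that cross-links fibrin, which macrophages and platelets make. It was a low-count gene everywhere except in the Vhl/Hif1a knockout, where the libraries held 170, 243 and 377 counts (6.38, 9.05 and 14.7 CPM) against 0, 1 and 18 counts in the control (0, 0.0441 and 0.694 CPM). The Vhl/Hif2a knockout held 5, 13 and 18 counts against 3, 1 and 1 in its control. The triple knockout held 1, 4 and 2 counts against 0, 2 and 3 in its control. The Vhl/Hif1a knockout lay far above all other groups, with its lowest library at 6.38 CPM and the highest of all others at 0.694 CPM.

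The log2 fold change of F13a1 in the Vhl/Hif1a knockout was 5.27 ± 0.72 (means of 10.1 ± 4.27 and 0.246 ± 0.389 CPM, edgeR adjusted p = 2.0e-04). As summed counts it was 790 against 19, a ratio of 38 per count sequenced with an exact 95% Poisson interval of 24.2 to 63.5, which covers counting error only. Replicate 3 of the control decided the size: without it the log2 fold change was 8.58 ± 0.87, and the ratio rested on 1 control count, at 464 with an interval of 83.0 to 18300. In that control library F13a1 stood at 6.90% of the knockout mean, and Egln3 stood at 6.71%, against at most 0.438% for either gene in the other 2 controls. In the Vhl/Hif2a knockout F13a1 was above its control in 3 of 3 libraries, at 0.369 ± 0.189 against 0.0795 ± 0.0641 CPM, but was not called (log2 fold change 2.24 ± 1.04, edgeR adjusted p = 0.18). With it, 3 of the 7 members in that comparison did not overlap between groups, where 35.1% of tested genes did not. In the triple knockout the log2 fold change was 0.32 ± 1.33, with an interval from -2.49 to 3.13 that leaves the effect undetermined at this depth. The excess of the Vhl/Hif1a effect over the triple effect, 4.94 ± 1.8, was not called (edgeR adjusted p = 0.21), where 2.04% of tested genes were. Nor was the excess of the Vhl/Hif2a effect, 1.92 ± 1.82 (edgeR adjusted p = 0.53), where 7.99% of tested genes were.

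A direct contrast of the 2 knockout groups, added after the counts had been seen, put F13a1 4.74 ± 0.68 log2 units higher in the Vhl/Hif1a than in the Vhl/Hif2a knockout (edgeR adjusted p = 1.5e-04), where 8.94% of tested genes were called. The groups of that contrast come from different crosses. The difference of the 2 effects, each against its own control, was 3.03 ± 1.60 and was not called (95% interval -0.35 to 6.4, edgeR adjusted p = 0.57), in a contrast that called 2.44% of tested genes and no member. Without replicate 3 of the Vhl/Hif1a control it was 6.34 (edgeR adjusted p = 0.051). Over the same contrast of knockout groups, 1 of the 5 tested monocyte markers was higher and 1 lower, with a median log2 difference of 0.37. Of 10 platelet markers 4 were tested, of which none was higher and 2 were lower, and the summed level was 2.05 to 2.31 against 5.86 to 6.93 CPM. Against its own control, the Vhl/Hif1a knockout had a higher platelet sum, 2.05 to 2.31 against 1.67 to 1.98 CPM. No tested platelet or monocyte marker was called there, where 3.64% of all tested genes were. The monocyte marker Vcan lay at 3.01 ± 0.77 against 1.49 ± 0.48 CPM, while the median log2 fold change of the tested monocyte markers was -0.11. The platelet gene Ppbp had 0 counts in all 18 libraries. The part of these markers in the F13a1 result was not tested. Of 2 annotated antisense models inside F13a1, at chr13:36867178-37050244, Gm30489 overlaps its exons by 74 bases, and both models had 0 counts.

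Plau encodes urokinase, the protease that activates plasminogen. Its levels were 23.0, 23.6 and 26.9 CPM in the Vhl/Hif1a knockout and 30.3, 28.2 and 25.8 CPM in the control. They were 40.4, 26.2 and 42.3 CPM in the Vhl/Hif2a knockout and 29.3, 26.9 and 33.0 CPM in the control. They were 25.7, 21.5 and 21.7 CPM in the triple knockout and 22, 18.8 and 19.5 CPM in the control. Each knockout overlapped its control, and none of the 3 changes was called: the log2 fold changes were -0.20 ± 0.15, 0.29 ± 0.15 and 0.19 ± 0.15, with edgeR adjusted p of 0.67, 0.22 and 0.51.

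Replicate 2 of the Vhl/Hif2a knockout held the least Plau and also the least Thbd, Plaur and immediate early RNA of its group. Without that library, Plau was 0.48 higher on the log2 scale in the Vhl/Hif2a knockout (edgeR adjusted p = 0.011, against 0.22 with all libraries). The Vhl/Hif1a effect was then 0.67 below the Vhl/Hif2a effect (edgeR adjusted p = 0.033, against 0.38 with all libraries). Leaving out the lowest knockout library raises the effect by itself, so these calls do not test it. In the direct contrast of knockout groups Plau fell by 0.57 ± 0.15 from the Vhl/Hif2a to the Vhl/Hif1a knockout (edgeR adjusted p = 0.021), with overlapping groups. That call was lost without any 1 of 4 of the 6 libraries (edgeR adjusted p 0.082 to 0.11) and with the immediate early sum as a covariate (0.12).

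Plaur encodes the urokinase receptor and was the second most abundant member per kilobase. Its levels were 321, 365 and 358 CPM in the Vhl/Hif1a knockout and 317, 311 and 312 CPM in the control. They were 392, 285 and 370 CPM in the Vhl/Hif2a knockout and 229, 345 and 344 CPM in the control. They were 269, 247 and 249 CPM in the triple knockout and 239, 344 and 224 CPM in the control. The Vhl/Hif1a knockout lay just above its control without overlap, as did 23.8% of tested genes in one direction or the other, and the other 2 knockouts overlapped their controls. The log2 fold changes were 0.15 ± 0.16, 0.19 ± 0.16 and -0.08 ± 0.16, with edgeR adjusted p of 0.80, 0.52 and 0.81. The lowest control of the Vhl/Hif2a cross and the highest triple control were also the libraries of their groups with the lowest and the highest immediate early sum, 558 and 2730 CPM. With that sum as a covariate the log2 fold change in the Vhl/Hif2a knockout was -0.09, with replicate 2 of the triple control left out the triple value was 0.14, and neither was called.

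F3, the gene for tissue factor, had 0 to 12 counts per library. The counts were 11, 7 and 2 in the Vhl/Hif1a knockout and 9, 9 and 0 in its control. They were 6, 0 and 8 in the Vhl/Hif2a knockout and 1, 8 and 9 in its control, and 7, 12 and 4 in the triple knockout and 10, 1 and 6 in its control. All groups overlapped, and the log2 fold changes of -0.01 ± 0.99, -0.84 ± 1 and 0.32 ± 0.95 had 95% intervals of -2.1 to 2.08, -2.95 to 1.27 and -1.68 to 2.32. A change of F3 was not detectable at this depth.

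The controls of the 3 crosses were compared to see how far member levels differed without a knockout. Of the 7 members, none was called between the Vhl/Hif1a and Vhl/Hif2a controls, where 0.341% of tested genes were called, and none between the Vhl/Hif1a and triple controls, where 5.40% were. Between the Vhl/Hif2a and triple controls, where 3.42% were called, Plau was higher by 0.56 ± 0.15 (29.7 ± 3.09 against 20.1 ± 1.71 CPM, edgeR adjusted p = 0.049). That call was lost without 5 of the 6 libraries in turn (edgeR adjusted p 0.067 to 0.15). Cross and any batch of preparation cannot be told apart in these comparisons. F10 in the 9 control libraries ran from 165 to 209 CPM and F7 from 425 to 555 CPM.

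The rest of the pathway was read from lists of 49 other genes, also chosen with earlier results known, of which 24 passed the filter. In the Vhl/Hif1a knockout none of the 24 was higher and 2 were lower, with a median log2 fold change of 0.02, where 3.64% of all tested genes were called (2.22% higher and 1.42% lower). In the Vhl/Hif2a knockout 5 were higher and 2 lower, with a median of 0.21, where 14.7% of all tested genes were called (7.68% higher and 7.01% lower). None was called in the triple knockout, with a median of 0.03, where 0.0388% were. Fibrinogen chains (Fga, Fgb and Fgg), F12, F13b, the kininogens, Plg (plasminogen, the substrate of urokinase) and Cpb2 had 0 counts in all 18 libraries. Proc, the gene for the protein C that thrombomodulin helps to activate, had at most 1 count, F2 (prothrombin) and F5 at most 3, and Plat, the other plasminogen activator, at most 5. Of the other coagulation factors F8, F9, Vwf and Klkb1 were tested, and none was called in a knockout.

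**Figure D5:**
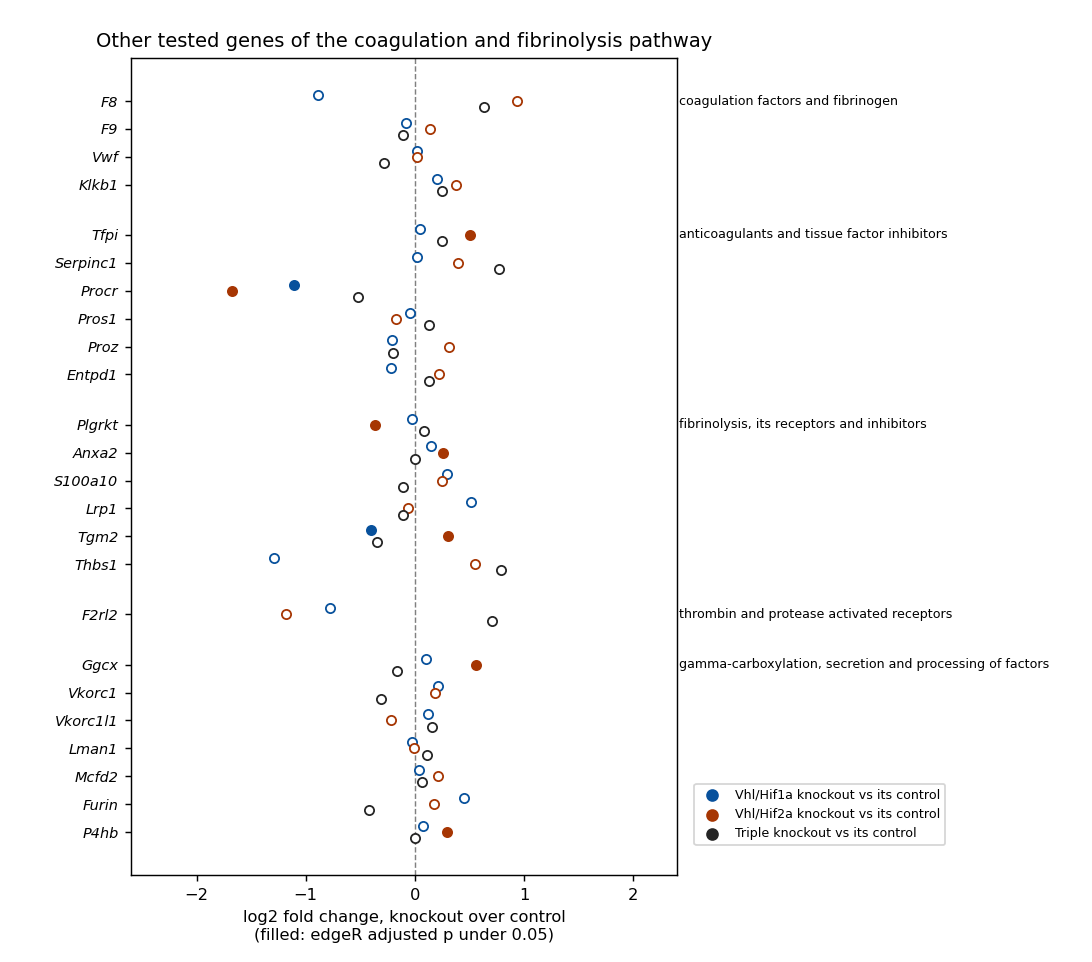
Log2 fold change, knockout over its own control, of the 24 tested genes of the pathway lists; filled points passed an edgeR adjusted p of 0.05. Procr was lower in both the Vhl/Hif1a and Vhl/Hif2a knockouts, Tgm2 was lower in one and higher in the other, and no point of the triple knockout is filled.

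Procr encodes the endothelial protein C receptor, the partner of thrombomodulin in protein C activation, and it moved opposite to Thbd. It fell in the Vhl/Hif2a knockout (1.27 ± 0.463 against 4.11 ± 1.31 CPM, log2 fold change -1.68 ± 0.29, edgeR adjusted p = 6.2e-04). It also fell in the Vhl/Hif1a knockout (1.75 ± 0.303 CPM, with 3.78 ± 0.485 CPM in the control, log2 fold change -1.11 ± 0.28, edgeR adjusted p = 0.037), a call lost without any 1 of the 6 libraries (edgeR adjusted p 0.065 to 0.18). In the triple knockout it was at 5.36 ± 0.295 against 7.66 ± 2.24 CPM and was not called. Some dendritic cell markers also lie at a few CPM here. The sum of 7 such markers was 8.10 to 10.5 CPM in the Vhl/Hif2a knockout against 19.5 to 47.3 CPM in its control. The sums overlapped in the Vhl/Hif1a cross (13.7 to 21.7 against 19.5 to 27.1 CPM) and the triple cross (15.5 to 19.5 against 13.9 to 34.4 CPM). In the Vhl/Hif2a knockout 4 markers were called lower, where 7.01% of all tested genes were. None was called in the Vhl/Hif1a or triple knockout, where 3.64% and 0.0388% of all tested genes were. The part of these markers in the Procr values was not tested. The summed level of endothelial markers was at most 1.16 CPM in any library.

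Tgm2, the tissue transglutaminase, a relative of factor XIII, was called in opposite directions. It was lower in the Vhl/Hif1a knockout (538 ± 16.2 CPM, with 711 ± 42.4 CPM in the control, edgeR adjusted p = 0.023) and higher in the Vhl/Hif2a knockout (772 ± 54.4 against 627 ± 27.3 CPM, edgeR adjusted p = 0.043). The difference of the effects was -0.70 ± 0.13 (edgeR adjusted p = 0.0066). Each of the first 2 calls was lost in 5 of 6 leave-outs of 1 library. Tgm2 and F13a1 moved in opposite directions in the Vhl/Hif1a knockout.

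The other called genes belonged to the Vhl/Hif2a knockout. Ggcx, the enzyme that gamma-carboxylates factors VII and X so that they can bind calcium and membranes, rose from 13 ± 1.33 to 19.2 ± 0.632 CPM (log2 fold change 0.56 ± 0.10, edgeR adjusted p = 9.5e-04). P4hb, protein disulfide isomerase, rose by 0.29 ± 0.06 and Anxa2, a plasminogen-binding annexin, by 0.26 ± 0.06 (edgeR adjusted p 0.0044 and 0.012). Tfpi, the inhibitor of the tissue factor complex, rose to 23.4 ± 1.44 CPM from 16.5 ± 1.25 CPM (edgeR adjusted p = 0.048), while Plgrkt, a plasminogen receptor, fell from 94.4 ± 5.66 to 73.3 ± 9.45 CPM (edgeR adjusted p = 0.026). The Tfpi call was lost without any 1 of the 6 libraries (edgeR adjusted p 0.07 to 0.16), the Plgrkt call without 4 of them (0.079 to 0.13), and the Anxa2 call without replicate 2 of the knockout (0.059).

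Among all tested genes with a mean of at least 1 CPM, those whose log2(CPM + 1) followed each member most closely over the 18 libraries were named by Pearson r, as a description with no test. F10 was followed by Gsn (r = 0.990), Emilin2 (0.984) and Nhsl2 (0.976), out of 10636 candidates. F13a1 was followed by C3ar1 (0.980), Arg1 (0.971) and Acly (0.962), and Thbd by Tmem159 (0.952), Snx25 (0.946) and Nfil3 (0.940). Plaur was followed by Zfp703 (0.945), Fbxl19 (0.919) and Coq8a (0.913). For F7, whose groups differed little, the closest were Napa (0.895), Unc93b1 and Atp6v0c (0.893 each), and for Plau they were Itga1 (0.869), Ccni (0.863) and Slc18b1 (0.854). For F3, with only 0 to 12 counts per library, they were Tmed2 (0.894), Fbxo8 (0.796) and Erp44 (0.771). Between members, F10 and Thbd had r = 0.888 and Thbd and Plaur 0.790, while F10 and its neighbour F7 had -0.322. The libraries fall into knockout and control groups, so these values describe shared group differences as much as shared variation between libraries.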

How the data were processed

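RNA-seq of alveolar macrophages was read from 1 deposited table of expected counts, estimates that can have decimals (89.3% of values were whole), for 32789 genes and 18 libraries. Per the submitters' processing notes, FastQC, cutadapt, STAR and the build GRCm38 were used. The versions, the counting tool and its strand setting are not stated there, although the labels' protocols name a directional kit. The counts were rounded, filtered with filterByExpr (12900 genes kept, with 99.967% of counts) and scaled with TMM factors. A quasi-likelihood model of edgeR 4.0.16 (R 4.3.3), with 1 coefficient per group and no covariate, was fitted to all 18 libraries. SE is the log2 fold change divided by the square root of F. Totals of 19230452 to 34015320 counts put 1 CPM at 19.6 to 33.5 counts. Alternatives used other scaling, other filters, DESeq2 1.42.0, the groups compared alone, a replicate block and each library left out. The fit was tested on simulated counts. Exon lengths come from GENCODE M21. The members and lists were chosen with earlier results of these data known. The named genes are the 7 members, the list genes called in a knockout and, per member, the 3 genes of highest r, without predicted and sex-linked genes. No column belonged to other samples. 1 further pathway gene is not reported here.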

Additional observations from a re-analysis of the deposited data

Results flagged for a closer look

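The results below were picked out because a test of the difference between 2 knockout effects passed an edgeR adjusted p of 0.05, with 3 libraries in each group. Most of them compare with the triple cross, so they share its 6 libraries, among them the control replicate that stood apart.

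For F10, the effect exceeded the triple effect by 1.09 ± 0.12 on the log2 scale in the Vhl/Hif1a knockout and by 0.84 ± 0.12 in the Vhl/Hif2a knockout. Without replicate 2 of the triple control these were 0.99 and 0.73. For Thbd, the Vhl/Hif2a effect exceeded the triple effect by 1.27 ± 0.28, and by 1.07 without that library.

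Furin, a processing protease, differed by 0.86 ± 0.20 between the Vhl/Hif1a and triple effects (edgeR adjusted p = 0.035). It was not called in 8 of the 12 leave-outs of 1 library, and was 0.60 without replicate 2 of the triple control (edgeR adjusted p = 0.018).

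Tgm2 had a Vhl/Hif1a effect below the Vhl/Hif2a effect by a log2 difference of -0.70 ± 0.13, and a Vhl/Hif2a effect above the triple effect by 0.65 ± 0.13. Ggcx had a Vhl/Hif2a effect 0.72 ± 0.14 above the triple effect. Atp11a, near F7 and F10, differed by -0.67 ± 0.13 in the same contrast.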

How the results depend on the processing

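Of the members' values, F10 kept its calls in both knockouts, and F13a1 in the Vhl/Hif1a knockout, under all alternatives run, with log2 fold changes of 0.95 to 1.04, 0.71 to 0.79 and 4.70 to 8.58 when 1 library was left out. No called value changed sign. Thbd in the Vhl/Hif1a knockout was lost under the replicate block (0.76, edgeR adjusted p = 0.068). With 1 library left out, the number of members called was 2 in every case in the Vhl/Hif1a knockout, 2 to 3 in the Vhl/Hif2a knockout, 0 to 1 for the Vhl/Hif1a minus Vhl/Hif2a effect, 1 to 2 for the Vhl/Hif1a minus triple effect and 0 to 1 for the Vhl/Hif2a against triple controls. With the immediate early covariate, added after seeing the data, 1 member was called for the Vhl/Hif2a minus triple effect. DESeq2 called 1 member between the Vhl/Hif1a and triple controls and 2 between the Vhl/Hif2a and triple controls, where relative log expression factors and a fit of the groups alone called 0.

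Counts of all genes moved more. Over leave-outs they ran from 282 to 369 (Vhl/Hif1a knockout), 1227 to 1625 (Vhl/Hif2a), 3 to 4 (triple), 161 to 413 (Vhl/Hif1a minus triple), 687 to 1406 (Vhl/Hif2a minus triple), 21 to 33, 209 to 1211 and 142 to 859 (the control pairs Vhl/Hif1a with Vhl/Hif2a, Vhl/Hif1a with triple and Vhl/Hif2a with triple). DESeq2 called 11 in the triple knockout, 492 for Vhl/Hif1a minus Vhl/Hif2a, 474 for Vhl/Hif1a minus triple, and 88, 1276 and 968 for the control pairs. A fit of the groups alone gave 2 in the triple knockout, 683 for Vhl/Hif2a minus triple, and 59 and 17 for the last 2 control pairs. The covariate gave 628 for Vhl/Hif2a minus triple and 279 for Vhl/Hif2a against triple controls. The cause of these shifts was not tested.

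Replicate numbers gave no sign of pairing: deviations of same-numbered libraries correlated at -0.32 to 0.24, and those of differently numbered libraries at -0.31 to 0.35. Such values cannot show whether libraries shared a litter or a day of preparation. With the replicate block, 2, 2 and 0 members and 427, 1726 and 4 genes were called in the 3 knockouts. Low counts limit the precision of F3 in all groups and of F13a1 outside the Vhl/Hif1a knockout.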
